A study of Mus musculus with 6 samples.

Results

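Of the 65770 features of a whole-transcript array whose ids mark a transcript cluster, 33185 (50.5%) had no gene symbol in the platform annotation, and they are described here by chromosome, level and response to HOXB4. They were chosen by id and annotation, with no measured value: control features were left out, the id had to start with the letters TC, and the chromosome was read from the first characters of the id. By that reading 33084 lay on 22 chromosomes, which are the 19 autosomes, X, Y and the mitochondrial genome M, and 101 lay on scaffolds that are not placed within a chromosome. The other 32585 features carried at least 1 symbol and served for comparison. A feature without a symbol is unnamed in the annotation used here, which is not the same as lying outside every gene.

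RNA came from mouse embryonic stem cells labelled iRunx, grown as embryoid bodies, which are floating aggregates in which early cell types form. On day 4 the bodies were taken apart, and cells with Flk1 and without PDGFRα on their surface were sorted; Flk1 marks mesoderm that gives rise to endothelium and blood. The control group was iRunx cells without HOXB4, and the HOXB4 group was iRunx cells that expressed this homeodomain protein from a retrovirus marked with tdTomato; all arrays share the iRunx background. The sources used here do not say whether an inducible Runx gene was switched on or whether control cells carried an empty virus. Each group had 3 arrays, 1 for each of 3 independent experiments per the series text, so p-values measure the spread between those experiments, and precision is limited by having few arrays.

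As background, mammalian genomes are transcribed well beyond their protein-coding genes. The products include long non-coding RNAs, transcripts antisense to genes or from enhancers, small structural RNAs and copies of repeated sequence, and long non-coding RNAs are on the whole less abundant and more restricted to particular cell types than messenger RNAs. Arrays of this kind also hold antigenomic features, whose probes match no sequence of the genome and so report the signal that arises without a target.

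The sorted population was checked by its markers. Kdr, the gene of Flk1, lay between 13.68 and 14.33 on the log2 scale in all 6 arrays, and the 1 feature listed for Pdgfra, which also lists other genes, lay between 5.95 and 7.15. Genes of other cell types were mixed. The endoderm genes Foxa2 and Afp and the neural genes Sox1 and Pax6 stayed below the highest background feature, but Sox17, an endoderm gene also used by endothelium, ran from 5.51 to 7.19 and the neural tubulin gene Tubb3 from 6.90 to 10.38. Tubb3 read 6.90, 7.73 and 8.33 in controls and 10.20, 8.25 and 10.38 in HOXB4 arrays, a difference of 1.95 (SE 0.60, limma adjusted p = 0.49). The pluripotency genes Pou5f1, Nanog and Zfp42 lay above background in all arrays, at up to 9.13, 9.61 and 9.21. The part of other cell types in the results below was not tested. HOXB4 2 resembled the controls in several mesoderm genes, but not in all: Hand1, a cardiac mesoderm factor, read 13.79, 12.82 and 13.46 in controls 1 to 3, 12.83 in HOXB4 2, and 8.98 and 8.61 in HOXB4 1 and 3. The other cardiac genes looked at were mixed. Tbx20 read 11.93, 11.23 and 11.19 in controls and 8.91, 10.67 and 9.10 in HOXB4 1 to 3, with HOXB4 2 between. Tnnt2 read 7.37, 7.42 and 7.22 against 7.84, 7.22 and 7.74, so HOXB4 1 and 3 were higher. Myl7, at 6.11, 5.16 and 5.60 against 5.04, 5.40 and 5.35, did not split the arrays this way. For the single features with the largest differences, values are therefore also given without HOXB4 2. That choice was made from the values of these arrays, so adjusted p-values without HOXB4 2 are descriptions.

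The features without a symbol were dim. Their median level was 4.41, 4.33 and 4.30 in controls (1 to 3) against 4.30, 4.35 and 4.34 in HOXB4 1 to 3, all on the log2 scale. The control mean was 4.35 ± 0.06 (SD, n = 3) and the HOXB4 mean 4.33 ± 0.03 (SD, n = 3), and the groups overlapped (exact permutation test, two-sided, p = 0.8). Features with a symbol had medians between 5.09 and 5.21, which put them 0.80 to 0.84 above the unnamed ones in each array. The median of the 23 antigenomic features lay between 3.06 and 3.15. The 3257 features listed for long non-coding RNA genes had a median level of 4.11, below the 4.34 of the unnamed features on the mean array, and the 19294 listed for protein-coding genes had 5.65. Levels of different features depend on their probes as well as on their transcripts, so these orders describe the array.

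The share of unnamed features at or below the median antigenomic feature of the same array, called the background share here, was small. It was 4.19%, 5.84% and 4.93% in controls (1 to 3) against 5.16%, 5.44% and 4.73% in HOXB4 1 to 3, which gave 4.99% ± 0.82 and 5.11% ± 0.36 (SD, n = 3 each). The groups overlapped (exact permutation test, two-sided, p = 0.9). Named features had 2.00% and 2.08%. This share depends strongly on the background chosen: at or below the highest antigenomic feature lay 80.5% of unnamed features in controls and 78.7% in HOXB4 arrays, against 58.8% and 58.0% of named ones. On the mean array that highest feature stood at 5.85, and the mean over all 6 arrays reached it for 6953 unnamed features (21.0%) and 13804 named ones (42.4%). These 6953 are called the brighter unnamed features below, and the other 26232 the dim ones.

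Level and background share varied little among chromosomes. Over the autosomes and X, the median level of unnamed features ran from 4.21 on chromosome 16 to 4.51 on chromosome X, and it was below that of named features on each of these 20 chromosomes. The gap was narrowest on X, at 0.27, and widest on chromosome 8, at 1.66, where the named features had a median of 6.02. The X and Y chromosomes stood at opposite ends among the nuclear chromosomes. X read 4.61, 4.48 and 4.47 in controls and 4.48, 4.55 and 4.48 in HOXB4 arrays, above chromosome 16 at 4.28, 4.21 and 4.16 and 4.17, 4.25 and 4.20 in every array. The background share ran from 3.89% on chromosome 11 to 6.18% on chromosome 15, and it was higher for unnamed than for named features on all 20. Unnamed features made up 37.8% of the features of chromosome 7 and 59.0% of those of chromosome 18.

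**Figure D1:**
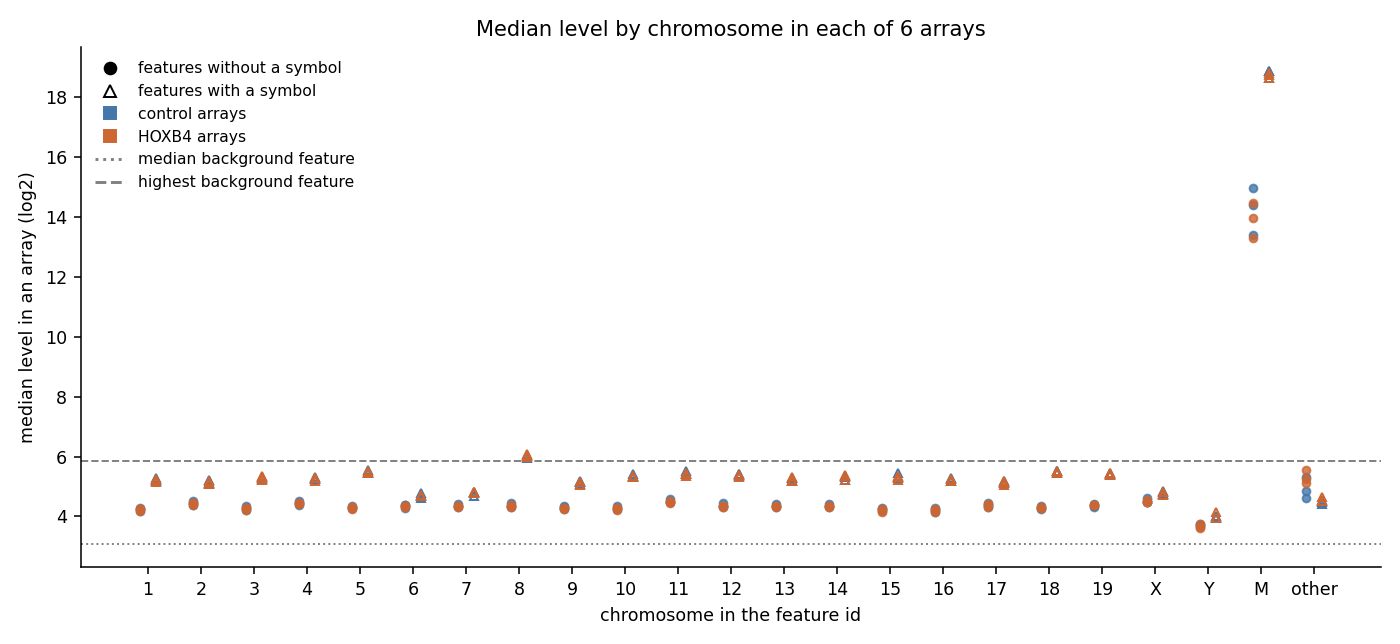
Median log2 level by chromosome, 1 symbol per array, for features without a gene symbol (filled circles) and with one (open triangles), with control arrays in blue and HOXB4 arrays in orange; "other" stands for unplaced scaffolds, and the horizontal lines mark the median and the highest antigenomic background feature. Unnamed features lay between 4.21 and 4.51 on the autosomes and X, lower on Y, and far higher on M, where the mean of the array medians was 14.08.

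The Y chromosome and the mitochondrial genome stood apart from the rest. The 300 unnamed features of Y had a median level of 3.70 and a background share of 14.2% ± 4.67 in controls and 16.1% ± 0.19 in HOXB4 arrays (SD, n = 3 each). All 19 unnamed features of M were bright, with means over the arrays from 9.38 to 18.34. The mitochondrial genome is copied from both strands into long transcripts that are cut into ribosomal, transfer and messenger RNAs, so an unnamed feature there can read any of these or the stretches between them. The 11 named features of M were brighter still, with a median of 18.77.

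No unnamed feature passed the test for a difference between HOXB4 and control. The limma fit over all 65956 features that were not controls called 0 of 33185 at a Benjamini-Hochberg adjusted p below 0.05, where it called 0% of all features; the smallest adjusted p among unnamed features was 0.31. At an unadjusted p below 0.05 stood 2339 unnamed features that were higher with HOXB4 (7.05%), where the share over all features was 4.64%, and 1247 that were lower (3.76%), where it was 4.42%. Named features had 715 higher and 1667 lower. In sorted cells measured in bulk, a difference in the share of a cell type and a difference in RNA per cell cannot be told apart. The count of lower unnamed features rested on single arrays: it was 779 without control 1, 1883 without control 3, 752 without HOXB4 1 and 818 without HOXB4 3. Every HOXB4 value lay above every control value for 2758 unnamed features (8.31%; 5.85% of all features), and every one below for 2286 (6.89%; 8.53% of all features). Which of these counts was the higher depended on the arrays: there were 4008 above and 4040 below without control 2, 5004 and 5388 without control 3, and 4317 and 4727 without HOXB4 2. For these counts with an array left out, the share over all features was not counted. They therefore cannot set unnamed features apart from named ones.

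The differences were higher in the brighter ranges than in the dim ones. Among the dim unnamed features the median difference, HOXB4 minus control, was -0.04 both at or below the median background and from there to 4, and -0.02 between 4 and 5. In these dim ranges the arrays of the groups overlapped: the median deviation from the feature's own mean between 4 and 5 was 0.07, -0.01 and -0.04 in controls and -0.05, 0.01 and -0.0048 in HOXB4 arrays (exact permutation test, two-sided, p = 0.7). Control 1 was the high array there, and without it the median difference was -0.01 up to 4 and 0.01 between 4 and 5. The median difference was 0.03 between 5 and the highest background, 0.10 from there to 7, 0.13 between 7 and 8, 0.22 between 8 and 10 and 0.14 above 10. The 1343 unnamed features between 8 and 10 thus had the highest median of the 8 ranges, with 381 of them without overlap above the controls (28.4%) and 75 below (5.58%), where the shares over all features at or above the highest background were 8.92% and 11.5%. Named features stayed between -0.08 and -0.01 in the same ranges. Over all unnamed features the median difference was -0.01, and over all named ones -0.04; the first was 0.02 without control 1 and 0.02 after cyclic loess.

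Over the 6953 brighter unnamed features the median difference was 0.13 on the log2 scale, with quartiles of -0.11 and 0.42, and 63.9% had a difference above 0. With each array left out in turn the median was 0.09 to 0.18. Over the 13804 brighter named features it was -0.05, and 42.3% had a difference above 0. At an unadjusted p below 0.05 stood 1499 of the unnamed ones that were higher (21.6%; 9.36% of all features of that brightness) and 333 that were lower (4.79%; 7.24%). No overlap was seen above the controls for 1420 (20.4%; 8.92%) and below them for 426 (6.13%; 11.5%). Features were taken by the mean over all arrays, so a feature could pass through 1 group alone: 315 did so through the HOXB4 mean and 126 through the control mean. Among the 5744 with all 6 values at or above that level the median difference was 0.12.

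Set against its own mean over the 6 arrays, the median brighter unnamed feature deviated by -0.08, -0.14 and 0.01 in controls (1 to 3) against 0.05, 0.12 and 0.04 in HOXB4 1 to 3. All 3 HOXB4 arrays lay above all 3 controls, with control 3 next to HOXB4 3 (exact permutation test, two-sided, p = 0.1, the smallest that 3 against 3 arrays allow). The brighter named features lay the other way, at 0.01, 0.04 and 0.03 in controls and -0.05, -0.02 and -0.03 in HOXB4 arrays (p = 0.1 by the same exact test). The unnamed minus named gap was -0.09, -0.18 and -0.01 in controls and 0.10, 0.14 and 0.07 in HOXB4 arrays (exact p = 0.1). Control features whose ids are marked neg varied between the arrays as well: the 2664 of them above the same level deviated by -0.12, -0.20 and 0.15 in controls (1 to 3) against 0.11, 0.17 and -0.01 in HOXB4 1 to 3. There, control 3 lay among the HOXB4 arrays and HOXB4 3 among the controls, and the groups overlapped (exact p = 0.3). The median HOXB4 minus control of these neg features was 0.17, where that of the brighter unnamed features was 0.13. The sources used here do not say what the neg features target, and the part of a signal shared with them in the unnamed features was not tested.

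**Figure D2:**
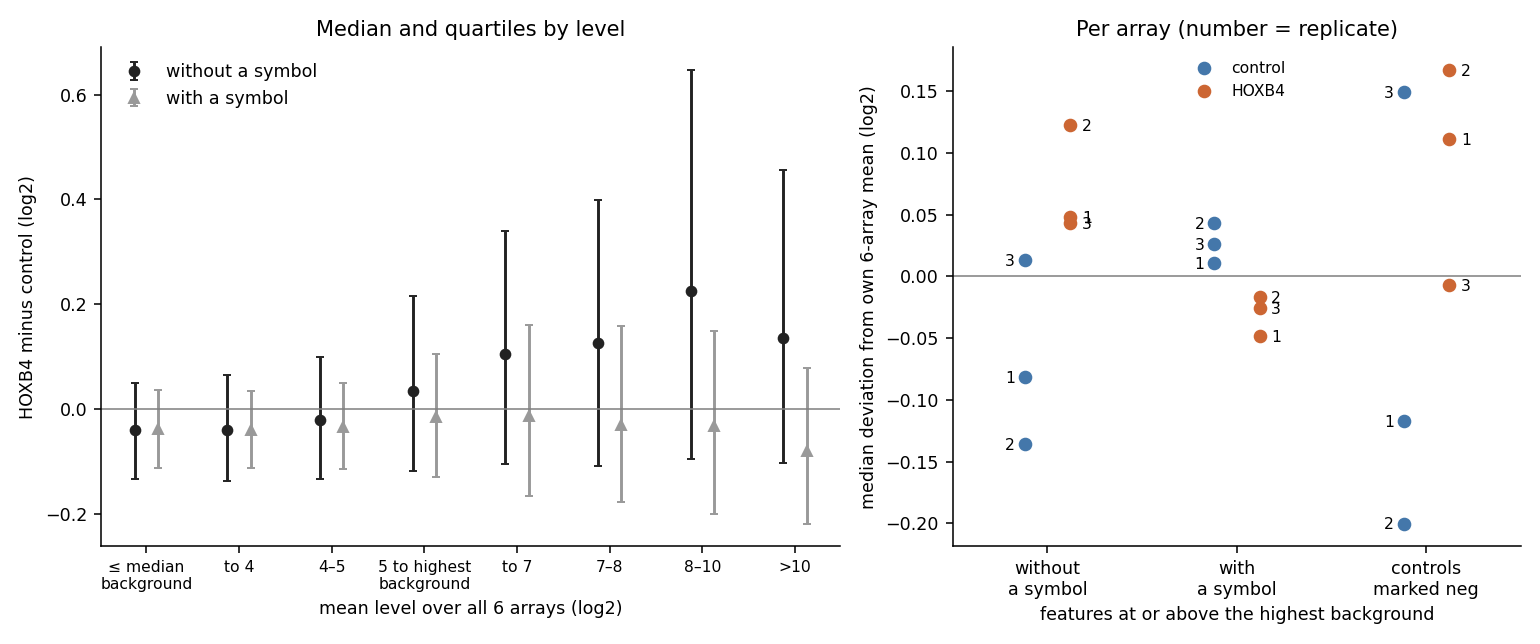
Left, median and quartiles of HOXB4 minus control (log2) by mean level, for features without a symbol (black circles) and with one (grey triangles); right, the median deviation of features at or above the highest background from their own mean in each array, numbered by replicate, with controls in blue and HOXB4 in orange. Unnamed features reached a median difference of 0.22 between 8 and 10 while named ones stayed at or below -0.01, and control 3 lay nearest to the HOXB4 arrays for the unnamed features.

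Named features of microRNAs, small nuclear RNAs, small nucleolar RNAs and ribosomal RNA leaned the same way as the brighter unnamed ones. The median difference of features at or above the highest background was 0.23 for 198 listed for microRNA genes, 0.18 for 460 listed for small nuclear RNAs, 0.15 for 55 listed for ribosomal RNA and 0.11 for 388 listed for small nucleolar RNAs. It was -0.04 for 9284 listed for protein-coding genes, -0.03 for 182 listed for long non-coding RNAs and -0.13 for 2172 listed for pseudogenes. Small nuclear RNAs are parts of the spliceosome, small nucleolar RNAs guide the modification of other RNAs, and both kinds exist in many copies and relics across the genome. These medians are descriptions, and no class was tested against another.

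The lean of the brighter unnamed features was seen on every autosome and on X. Their median difference ran from 0.04 on chromosome 10 to 0.20 on chromosome 8. Identical values were also counted once over all unnamed features, on the chromosome of the first id. That takes sets shared between chromosomes off the other chromosomes they lie on. The median difference then ran from 0.05 on chromosome 7, where it had been 0.09, to 0.17 on chromosome 8. Chromosome 10 was then at 0.08, and chromosome 18 was at 0.06 in place of 0.11. With every feature counted, on all 20 chromosomes it was above 0 and above the median of the named features. The named median was below 0 on 17 of the 20. On all 20 more brighter unnamed features lay without overlap above the controls than below them, with 28.6% above on chromosome 13 and 14.9% above on chromosome 19. All chromosomes are read from the same 6 arrays, so their agreement is not 20 independent observations. Over all unnamed features, dim ones included, the chromosome medians ran from -0.03 on chromosome 11 to 0.01 on chromosome 6. Taken relative to all unnamed features of the same array, the chromosome's median level moved between -0.02 and 0.04 from control to HOXB4 over the 20, and none of the 23 chromosome classes, scaffolds included, reached an exact p of 0.1 (Benjamini-Hochberg adjusted over the 23, every one 1). For the brighter features alone 5 of the 23 reached 0.1, with an adjusted value of 0.46.

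**Figure D3:**
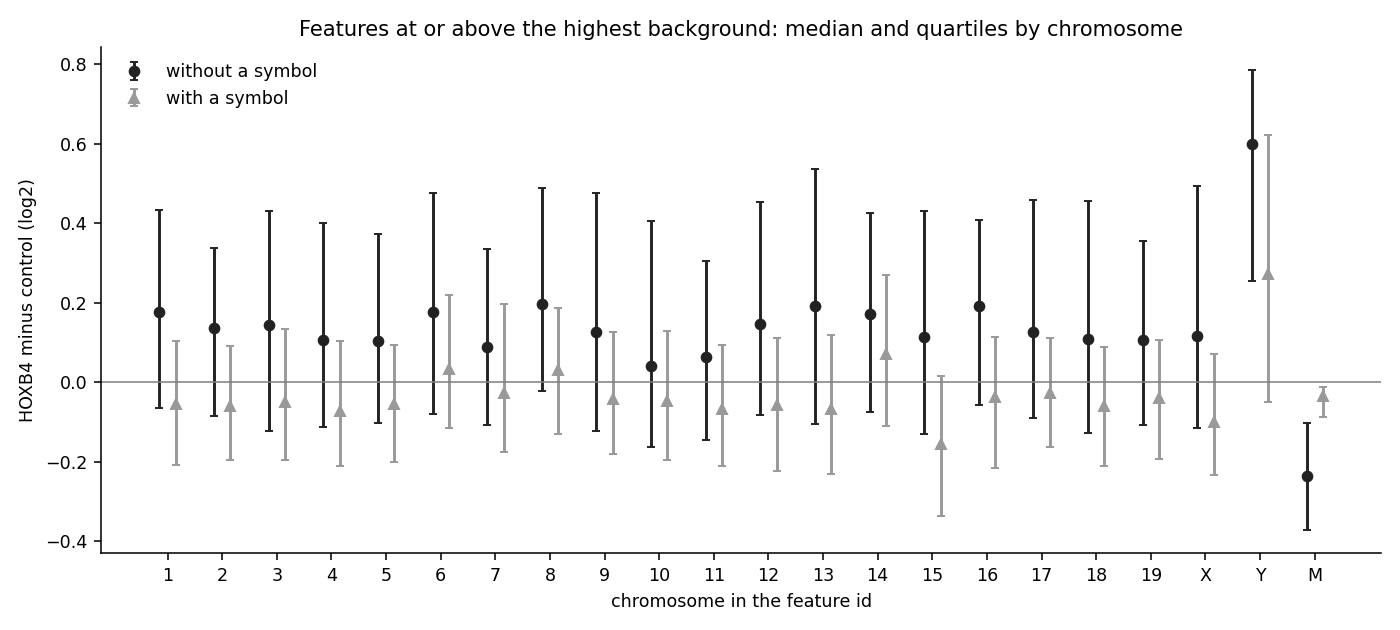
Median and quartiles of HOXB4 minus control (log2) by chromosome for features at or above the highest background, without a symbol (black circles) and with one (grey triangles). The unnamed median lay above the named one on each autosome and on X, was highest on Y at 0.60 and lowest on M at -0.24.

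Chromosome 10 held 1 run of related features, many of them lower with HOXB4. Between the features of the cytokine genes Il22 and Ifng, in the order of the ids, lay 76 unnamed features that held only 32 distinct sets of values, 23 of them lower with HOXB4. Id order followed position for named genes: 98.7% of 30266 neighbouring pairs had rising start positions in the reference gene table. Il22 and Ifng themselves were at 3.84 and 3.09 and differed by -0.03 (SE 0.12) and -0.15 (SE 0.12). The 42 brighter features of the run had a median difference of -0.25, which was -0.12 over their 18 sets of values, and the remaining 330 brighter unnamed features of chromosome 10 had 0.13. Over the 32 sets the median level was 6.52, 6.56 and 6.25 in controls and 6.08, 6.24 and 6.49 in HOXB4 arrays, and the groups overlapped (exact permutation test, two-sided, p = 0.2). In a set of 6 with the same values, TC1000001411 among them, the level was 6.44, 5.95 and 6.34 in controls and 5.12, 4.89 and 4.81 in HOXB4 arrays. The groups did not overlap, and the difference of -1.30 (SE 0.16) had an adjusted p of 0.31 in the limma fit. This set fills all places of the rule for the lower features with the smallest p, and it is 1 measurement. A brighter set of 4 with TC1000001406 read 12.73, 12.96 and 12.79 in controls and 12.17, 12.43 and 12.15 in HOXB4 arrays, again without overlap, a difference of -0.58 (SE 0.12).

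Such shared values marked features that the array cannot tell apart. Of the unnamed features, 827 (2.49%) had the same value as another feature in each of the 6 arrays, as features built from the same probes would, and 816 of them formed 196 sets of 2 or more. In 34 sets, with 367 features, the ids named 3 or more chromosome classes, the scaffolds counted as 1 class, and 32 of these sets were bright. HOXB4 minus control was above 0 in 30 of the 32 and below 0 in 2, the median was 0.55, and the range ran from -0.48 to 1.36. All HOXB4 values lay above all controls in 23 sets and below in 1. Of all features at or above the highest background, 8.92% lay above and 11.5% below. Some of the 32 sets had nearly the same values as others, so they are not independent readings and these counts hold near copies. With scaffolds not counted there were 31 bright sets, at a median of 0.48. Over the sets that lay on 1 chromosome, 38 were bright, with a median of 0.09, 5 above and 3 below without overlap. The smallest adjusted p of the sets on 3 or more classes was 0.31. The median of these 32 sets was 0.44 to 0.64 with each array left out in turn.

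The largest of these sets held 63 features on 18 chromosome classes. It read 8.33, 8.59 and 9.19 in controls and 9.40, 9.55 and 9.49 in HOXB4 arrays, a difference of 0.78 (SE 0.21, limma adjusted p = 0.46). The HOXB4 arrays lay close together, and the controls were spread, with control 3 nearest to them. A set of 30 features on 14 classes was nearly a copy of it, at 8.31, 8.56 and 9.26 against 9.37, 9.61 and 9.49. A set of 35 features on 17 classes also had control 3 as the highest control, at 7.34, 7.61 and 8.07 against 8.41, 8.57 and 8.64. Its difference was 0.87 (SE 0.19), and whether it is a separate reading was not tested. A set of 26 on 12 classes was among the brightest, at 16.88, 16.60 and 16.87 against 17.14, 17.24 and 17.00, a difference of 0.34 (SE 0.12). The largest difference among the 32 was that of a set of 3 on 3 chromosomes with TC0100000345, which read 9.28, 9.47 and 10.04 in controls and 11.08, 10.70 and 11.08 in HOXB4 arrays, a difference of 1.36 (SE 0.21). Over the 32 sets the median deviation was -0.46, -0.36 and 0.09 in controls (1 to 3) against 0.23, 0.39 and 0.25 in HOXB4 1 to 3. As in the neg control features, HOXB4 2 was highest and control 3 lay above the other controls; their part in this difference was not tested.

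**Figure D4:**
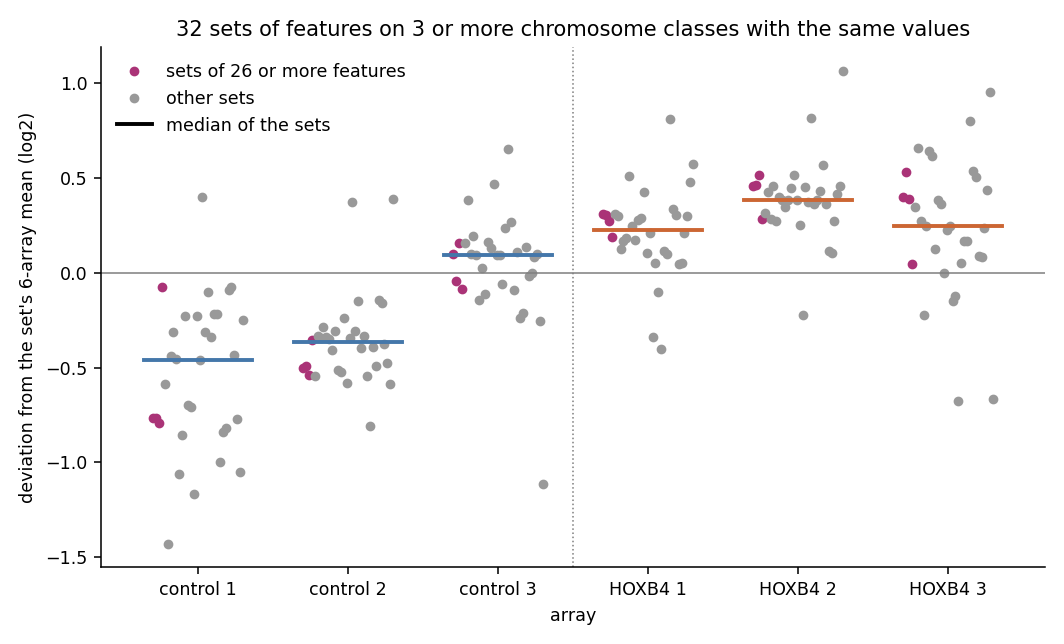
Deviation of 32 sets of features on 3 or more chromosome classes, scaffolds included, from the set's own mean over 6 arrays (log2), 1 point per set and array, with sets of 26 or more features in purple and the median of the sets as a bar. The medians of controls 1 and 2 lay at -0.46 and -0.36, that of control 3 at 0.09 and those of the HOXB4 arrays between 0.23 and 0.39.

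On chromosome Y, 16 unnamed features in 11 sets of values were bright, and all 16 were higher with HOXB4, with a median of 0.60 and 7 without overlap, against 8.92% of all features of that brightness. Of the 16, 8 shared their values with features on other chromosomes, 4 of them in a set of 30 features spread over 14 chromosome classes, so they are not readings of Y alone. These 4 are among the 7 without overlap and are 1 measurement, so that count holds copies. The other 8 of the 16 also had a median of 0.60, with 3 without overlap. With each of their 7 sets of values counted once the median was 0.53. TC0Y00000540, which shared its values with no other feature, read 12.99, 13.22 and 13.97 in controls and 14.60, 14.51 and 14.26 in HOXB4 arrays. Its groups did not overlap, and the difference was 1.06 (SE 0.25, limma adjusted p = 0.42). TC0Y00000225 read 13.80, 14.07 and 15.74 against 15.49, 15.64 and 15.45, where control 3 was the highest of all. The other unnamed features of Y were dim, and over all 300 the median difference was 0.00.

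The mitochondrial features leaned the other way, within the spread of the arrays. Of the 19, 16 were lower with HOXB4, with a median difference of -0.24, and for each of them the groups overlapped. The median level was 14.97, 14.39 and 13.38 in controls and 13.31, 14.45 and 13.96 in HOXB4 arrays, so control 3 and HOXB4 1 were both low. The median difference was -0.07 without HOXB4 1, -0.09 without control 1, -0.15 without control 2 and -0.51 without control 3. TC0M00000017 differed most, with 13.85, 12.91 and 12.32 in controls and 10.18, 12.74 and 12.05 in HOXB4 arrays, where HOXB4 1 alone was far below. The 11 named features of M differed by -0.03 at the median.

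Of the 101 features on scaffolds, 83 were higher with HOXB4 and 18 lower, at a median of 0.26, and 19 lay above (18.8%; 5.85% of all features) and 1 below (0.990%; 8.53%) without overlap. They are not independent, since they held 73 distinct sets of values. With sets of identical values counted once over all unnamed features, at the first id, sets shared with placed chromosomes drop out of the scaffolds. The median of the scaffold features left was then 0.16. Their median level was 4.61, 4.83 and 5.31 in controls and 5.13, 5.56 and 5.24 in HOXB4 arrays, so the groups overlapped through control 3 (exact permutation test, two-sided, p = 0.3). Most, 51 in 27 sets, were on pieces assigned to chromosome 1, with a median difference of 0.35 and of 0.29 when each set was counted once. Their median level was 4.28, 4.54 and 5.21 in controls and 5.09, 5.56 and 5.24 in HOXB4 arrays, and the groups overlapped through control 3 (exact permutation test, p = 0.2). A set of 12 features on scaffolds and chromosomes 1 and 5 read 3.86, 4.38 and 5.47 in controls and 6.30, 5.84 and 6.23 in HOXB4 arrays, a difference of 1.55 (SE 0.38, limma adjusted p = 0.43), although its mean of 5.34 lay below the highest background. The 13 features on pieces assigned to no chromosome had 9 above the controls without overlap, where 5.85% of all features did, at a median of 0.30. Of the 13, 9 were bright, and 8.92% of all features of that brightness lay above. The count above holds copies: TCUn_GL45639300000001 belongs to the set of 63 features. TCUn_GL45638500000001 and TCUn_GL45638500000002 read nearly the same, with means of 16.80 and 16.81.

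The single features with the smallest p that were higher with HOXB4 had tight replicates and differences below or close to 1. TC0200002620 on chromosome 2 read 13.00, 13.02 and 13.10 in controls and 13.79, 13.85 and 13.88 in HOXB4 arrays, a 1.74-fold difference of 0.80 (SE 0.09, limma adjusted p = 0.31). Its nearest named features, 4 ids away on either side, were at 5.08 and 3.86 and differed by -0.01 and 0.09. TC1400001208 on chromosome 14 read 12.53, 12.59 and 12.59 against 13.39, 13.31 and 13.54, a difference of 0.84 (SE 0.10). It followed a feature listed for Rpl41, a ribosomal protein gene, which differed by -0.15 (SE 0.12). In both cases the named features nearest in id order did not show the difference, and those of TC0200002620 lay below the highest background feature. Ids ran along the plus strand and then the minus strand for 98.5% of 18101 features with a known strand. Genes on the opposite strand were therefore not looked at.

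On chromosome 4, TC0400000128 read 6.75, 6.56 and 6.57 in controls and 7.41, 7.48 and 7.61 in HOXB4 arrays, a difference of 0.88 (SE 0.11). The feature before it, Tmem55a, which encodes a phosphoinositide phosphatase, differed by 0.06 (SE 0.15). TC0600002931 on chromosome 6 read 7.82, 7.77 and 8.06 against 8.76, 8.90 and 9.09, a difference of 1.04 (SE 0.13). A pair lay on chromosome 18. TC1800000877 read 11.71, 11.56 and 11.77 against 12.59, 12.46 and 12.68, a difference of 0.90 (SE 0.11), while Zfp516, a zinc finger gene 2 ids before it, differed by -0.97 (SE 0.42). TC1800001669 read 12.51, 12.43 and 12.59 against 13.32, 13.26 and 13.28, a difference of 0.77 (SE 0.10), beside Sall3, a developmental zinc finger gene, at -0.29 (SE 0.33). In these 6 features all HOXB4 arrays, HOXB4 2 included, lay above all controls, and each had the same adjusted p of 0.31 in the limma fit.

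After the set on chromosome 10, the lower features with the smallest p were looked up by set, a choice made after the values were seen. TC0400000505 on chromosome 4 read 7.50, 6.94 and 6.83 in controls and 5.87, 5.87 and 5.996 in HOXB4 arrays, a difference of -1.18 (SE 0.18), between Foxe1 at 3.06 and Anp32b at 13.26, which differed by -0.04 and -0.10. TC0600002467 on chromosome 6 read 6.31, 6.63 and 6.16 against 5.42, 5.32 and 5.51, a difference of -0.95 (SE 0.14), next to Rmnd5a at 0.20 (SE 0.18). TC0400001946, TC0X00002767 and TC1900001456 followed with differences of -0.73, -0.79 and -0.65. None of these 5 overlapped between the groups, and in each the named neighbours differed by less.

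Differences of 1 or more on the log2 scale were found for 236 unnamed features (0.71%), 193 higher and 43 lower with HOXB4. The share among all features was not counted, so these numbers cannot set unnamed features apart from named ones. The 236 were chosen for their size, so the counts that follow describe them. Among the 43 lower ones, HOXB4 1 and 3 lay below all controls while HOXB4 2 did not in 25. Among the 193 higher ones, HOXB4 1 and 3 lay above all controls while HOXB4 2 did not in 73, and all 3 did in 111. Of the higher ones 31 belonged to sets on 3 or more chromosome classes, and of the lower ones 0. Named features stood directly beside the lower ones 37 times, and 27 of these were also lower, 9 of them by 0.5 or more. Beside the higher ones they stood 122 times, with 78 also higher, 31 of them by 0.5 or more. Beside all brighter unnamed features, 2730 of 6277 adjacent named features were higher, 229 of them by 0.5 or more and 135 lower by 0.5 or more.

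Among the 4 features with the largest negative differences, 2 had HOXB4 2 within or above the controls. TC0100003501 on chromosome 1 read 9.11, 8.14 and 8.67 in controls, 5.46 and 5.47 in HOXB4 1 and 3, and 8.25 in HOXB4 2, a difference of -2.25 (SE 0.73, limma adjusted p = 0.50) and of -3.18 (SE 0.27, adjusted p = 0.04) without HOXB4 2. It lay between Nuf2, a kinetochore gene, and Rgs4, a regulator of G protein signalling, which differed by -0.31 (SE 0.14) and -0.72 (SE 0.54). Rgs4 split the arrays in the same way, apart from control 2: it read 6.94, 5.48 and 6.78 in controls, 6.78 in HOXB4 2, and 5.10 and 5.17 in HOXB4 1 and 3. TC1800000540 on chromosome 18 read 9.14, 8.38 and 9.53 in controls and 6.12, 9.93 and 6.54 in HOXB4 1 to 3, a difference of -1.49 (SE 0.94) and of -2.69 (SE 0.33, limma adjusted p = 0.08) without HOXB4 2. The nearest named feature before it, Prdm6, a transcriptional regulator known from smooth muscle, read 9.95, 9.62 and 10.003 against 7.46, 10.08 and 7.13.

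Without overlap, and with HOXB4 2 between the others and the controls, were the other two of these 4. TC0400002128 on chromosome 4 read 9.51, 8.80 and 8.05 in controls and 6.62, 7.75 and 6.96 in HOXB4 1 to 3, a difference of -1.68 (SE 0.41) and of -1.997 (SE 0.39) without HOXB4 2, next to the ribosomal protein gene Rps20 at -0.34 (SE 0.10). TC1100000806 on chromosome 11 read 7.51, 7.47 and 6.76 against 5.34, 6.22 and 5.39, a difference of -1.60 (SE 0.29) and of -1.88 (SE 0.24) without HOXB4 2. It followed Snord49a, a small nucleolar RNA, which lay far brighter at 15.87 and differed by 0.25 (SE 0.27).

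Of the 4 features with the largest positive differences, 3 had HOXB4 1 and 3 above all controls and HOXB4 2 within or next to the controls. TC1900001379 on chromosome 19 read 6.31, 8.25 and 6.97 in controls and 9.97, 7.69 and 9.91 in HOXB4 1 to 3, a difference of 2.02 (SE 0.71) and of 2.76 (SE 0.51) without HOXB4 2. TC0600000364 on chromosome 6 read 7.92, 8.26 and 8.92 against 11.44, 8.88 and 10.54, a difference of 1.92 (SE 0.60) and of 2.62 (SE 0.36) without HOXB4 2, and Trim24, a transcriptional co-regulator 2 ids before it, read 10.67, 11.84 and 10.91 against 12.43, 10.85 and 12.28. TC1300002460 on chromosome 13 read 8.31, 9.09 and 8.53 against 10.82, 9.39 and 10.96, a difference of 1.75 (SE 0.42) and of 2.25 (SE 0.23) without HOXB4 2. F2r, the thrombin receptor gene 2 ids after it, read 15.42, 16.07 and 15.46 against 17.16, 15.59 and 17.16, a difference of 0.98 (SE 0.43). The fourth, TC0600002384 on chromosome 6, split both groups. It read 4.27, 9.83 and 4.40 in controls and 10.01, 4.49 and 9.56 in HOXB4 arrays, so its difference of 1.86 (SE 1.90) was smaller than its error. Without HOXB4 2 the difference was 3.62 (SE 1.599, limma adjusted p = 0.44). Gprin3, the named feature directly after it, split the arrays in the same way. Gprin3 read 4.30, 7.26 and 5.19 in controls and 7.16, 4.15 and 6.97 in HOXB4 arrays. The endothelial marker genes Pecam1 and Cdh5 were likewise high in control 2, HOXB4 1 and HOXB4 3, as were Tal1 and Gata2. Pecam1 read 8.10, 10.63 and 7.96 in controls and 11.75, 7.75 and 10.71 in HOXB4 arrays. The blood and endothelium genes looked at were not uniform. Etv2 was lower in those arrays than in the others, at 12.31, 11.75 and 12.33 in controls and 9.58, 12.06 and 10.16 in HOXB4 arrays. Lmo2 stayed between 8.58 and 8.86, and Kdr between 13.68 and 14.33. The part of endothelial or blood cells in these differences was not tested.

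**Figure D5:**
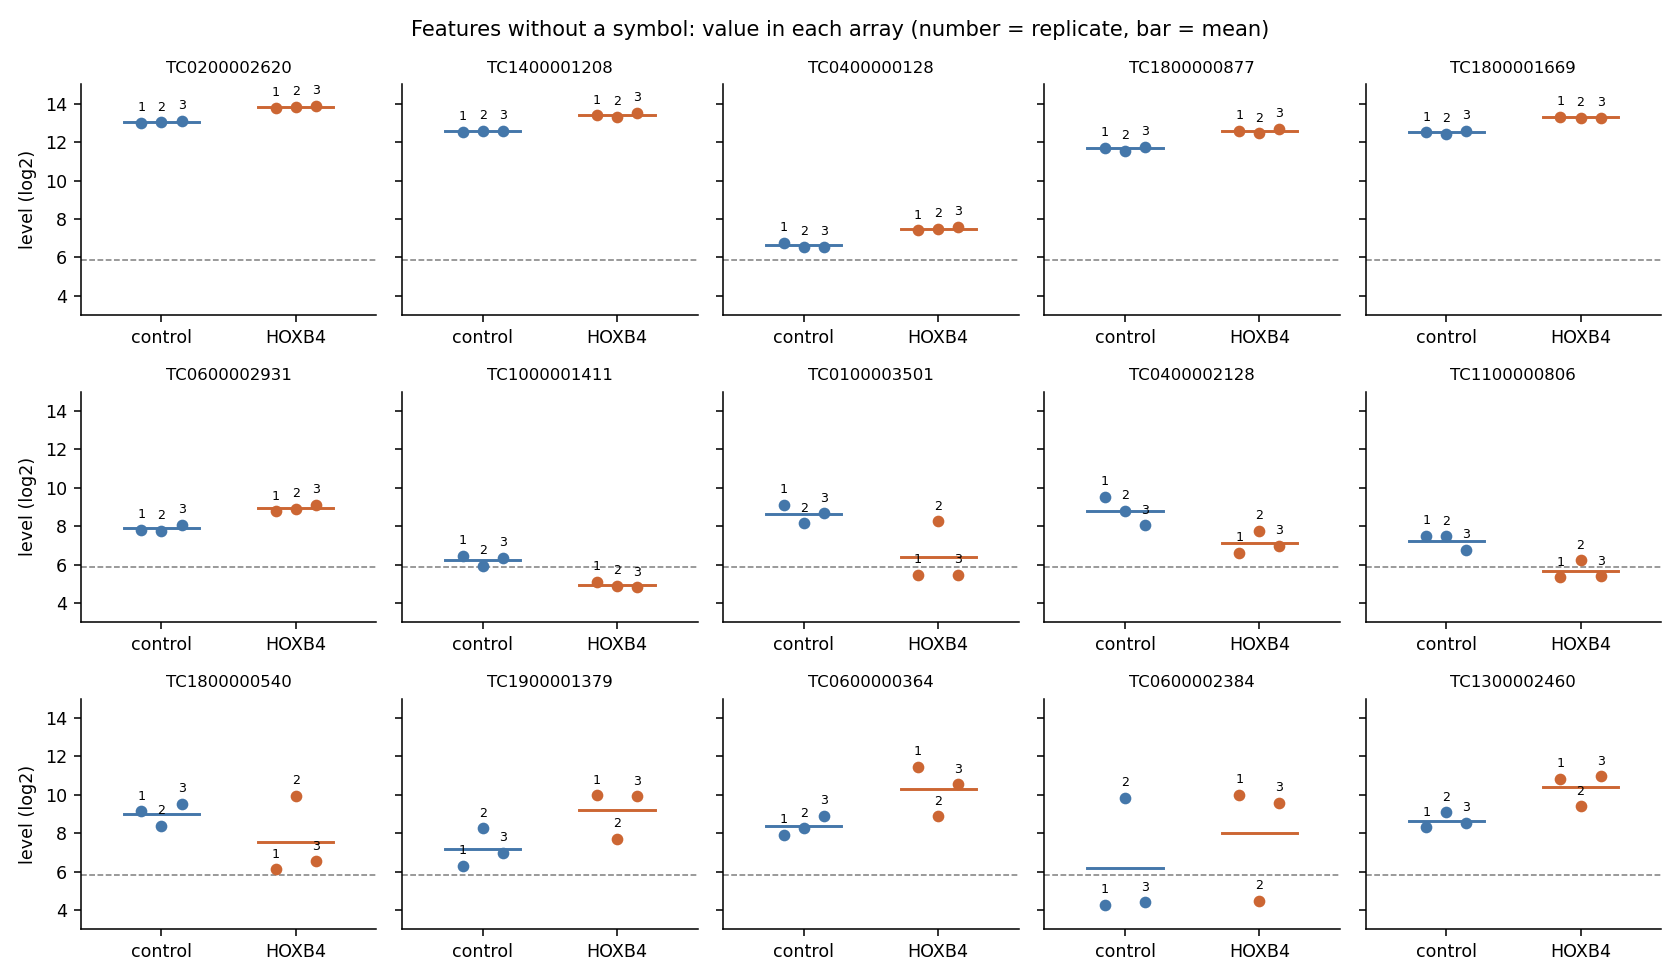
Log2 level in each array for 15 unnamed features, 1 panel each, with controls in blue, HOXB4 in orange, the replicate number above each point, the group mean as a bar and the highest antigenomic background feature as a dashed line. The first 7 panels, chosen by p, show groups without overlap; in the others, chosen by size, HOXB4 2 often sits with or near the controls, as for TC0100003501 at 8.25.

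HOXB4 2 was singled out because its values resembled the controls, so leaving it out tends to widen such differences. Without it, 8 unnamed features passed the threshold in the limma fit, which describes these arrays and is no independent support. They were 4 higher ones (0.0121%; 0.00758% of all features) and 4 lower ones (0.0121%; 0.0531% of all features). Lower were TC0100003501, TC1800000539 beside Prdm6, and TC0800002784 and TC0800002785 beside Cdh11, the gene of a mesenchymal cadherin. TC0800002785 read 7.21, 7.10 and 6.90 in controls, 4.73 and 5.07 in HOXB4 1 and 3 and 7.55 in HOXB4 2, and Cdh11 read 13.62, 13.39 and 13.90, 10.86 and 10.66, and 13.74 in the same order. Its difference was -1.29 (SE 0.67, limma adjusted p = 0.61) with all arrays and -2.17 (SE 0.16) without HOXB4 2. Higher were TC0300001483 after Ddah1, which encodes an enzyme that breaks down methylated arginines, TC0300002761 after Fam102b, TC1100002976 after Arhgap44, and TC1200000905, 6 ids after Nrxn3, a neurexin gene. TC0300001483 read 3.87, 3.64 and 3.66 in controls, 5.43 and 5.12 in HOXB4 1 and 3 and 4.10 in HOXB4 2, below the highest background in every array, and Ddah1 read 9.42, 10.71 and 9.04 against 11.55, 9.15 and 11.14.

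Unnamed features next to each other in id order tended to differ in the same direction. Over 1554 pairs of adjacent brighter unnamed features with distinct values, the differences had a Pearson r of 0.53 and a Spearman correlation of 0.50. At 2 steps along the ids r was 0.33 over 1266 pairs, and it was 0.26 at 3 steps, 0.18 at 5, 0.09 at 10 and 0.00 at 50. Pairs of 1 unnamed and 1 named feature had 0.27 over 3815 pairs at 1 step, 0.13 at 2, 0.06 at 3 and 0.03 at 5. Pairs of named features began at 0.25 and were still at 0.14 at 50 steps. These are correlations across features of the same 6 arrays, adjacent features can share a transcript or probes, and no test was made of them.

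The highest levels of all unnamed features lay at the top of the equalised scale, where the highest value of any feature was 19.93, so a difference between the groups cannot be read from them. TC0200004196 read the same 19.85 in control 3, HOXB4 1 and HOXB4 3. TC0900000003 on chromosome 9 read 19.18 in control 1 and between 19.89 and 19.93 in the other arrays, and TC0200004196 on chromosome 2 read 19.43 in control 1 and between 19.81 and 19.85 in the others. TC1200000561, TC0100002078, TC1200001864 and TC1600000133 had means of 19.59, 19.56, 19.52 and 19.50 and differences between -0.03 and 0.01 (SE 0.09 to 0.10). Control 1 alone was low in the first pair, and control 2 was the highest array in TC1200000561, TC1200001864 and TC1600000133, at 19.68, 19.60 and 19.55. TC0100002078 lay 2 ids after Gm10925, a predicted gene at 19.76, and TC1200001864 beside Nemf, a ribosome quality control gene at 11.87.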

How the data were processed

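RNA of 6 samples was hybridised to 1 array each; per the labels' protocols, 100 ng of total RNA went into the WT PLUS labelling kit of Affymetrix. From the scans the authors derived log2 summaries, 1 per feature, with Affymetrix Expression Console and RMA, per the submitters' processing notes; RMA corrects background, equalises the arrays and summarises probes, so a shift of most features in 1 direction would be partly removed. Versions, settings and the genome build of the features are not stated there. Of 72688 rows, 65956 were not controls: 65770 with TC ids and 186 without a chromosome, which entered the fit but not the counts of named or unnamed features. Groups came from the sample titles.

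A limma 3.58.1 model (R 4.3.3; lmFit and eBayes, two-sided) without a replicate block gave HOXB4 minus control for the 65956 features, with Benjamini-Hochberg adjustment and a threshold of 0.05; SE is the moderated standard error. The script was tested on simulated data. Medians per array were compared by exact permutation. Brightness was judged against 23 antigenomic features. Neighbours were taken from id order, which was checked against RefSeq genes of GRCm38.p6. Single features were named if they passed the threshold, and otherwise as the 6 per direction with the smallest p among those whose mean reached the median named feature (5.16), the 4 per direction with the largest difference, and the 6 with the highest level. The members, lists and rules were chosen with earlier results of these data known. Alternatives were a replicate block, other priors, array weights, 2 scalings, a filter on dim features, other background levels and each array left out; those added after the data were seen are the neg background, features with the same values counted once, scaffolds left uncounted among shared values, and the split by level, also with each array left out. No column of another sample was present. Plots used matplotlib 3.10.9 under Python 3.11.15, and tables pandas 2.3.3.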

Additional observations from a re-analysis of the deposited data

How the results depend on the processing

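No unnamed feature was called in the main limma fit, with a replicate block, with array weights, with a trended robust prior, after centring, after cyclic loess or after the filter on dim features; 1 was called without moderation (TC0500002841, at a difference of -0.50), and 0 to 8 with an array left out, the 8 without HOXB4 2. Deviations of same-numbered arrays had correlations of -0.29, -0.46 and -0.27. With so few arrays these values cannot decide whether same-numbered samples were paired. With the replicate block 763 unnamed features were lower at an unadjusted p below 0.05. Without moderation 1554 were higher. The filter on dim features left 1327 higher and 250 lower, with 1420 above and 426 below without overlap and a median difference of 0.13, as fewer features entered. With an array left out, 752 to 1883 were lower, 4008 to 5004 lay above and 3099 to 5388 below without overlap, since fewer arrays have to separate, and the unnamed minus named gap in the brighter features was 0.14 to 0.22. Counts without overlap need no model, so the block, weights and priors give none. For the counts at an unadjusted p under these settings, and those without overlap with an array left out, no share over all features was counted. The mean in place of the median level gave 5.05 in controls and 5.07 in HOXB4 arrays. The background share in controls and HOXB4 arrays was 0.0060% and 0.0040% under the lowest antigenomic feature, 31.6% and 32.6% under their 75th percentile, 80.5% and 78.7% under the highest, and 79.5% and 79.8% under the median neg feature. No direction reversed among the 254 settings for single features, of which 1 passed the threshold. These features were chosen from the same arrays, so a kept direction was nearly fixed in advance and is no independent support. Of 299 chromosome medians 24 moved by more than the spread between replicates. After cyclic loess the median difference of unnamed features above 10 was 0.18. Signal over background sets the limit for the dim features, whose levels lie within the range of the antigenomic features.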
